A study of Mus musculus with 219 samples.

Results

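The 9 genes described here, Brca1, Bard1, Palb2, Brca2, Rad51c, Rad54b, Dmc1, Sycp3 and Slx1b, act in the repair of DNA double-strand breaks by homologous recombination or in its meiotic form. They were chosen by symbol, and all 9 are among the 32285 genes counted both in the blastomeres and in the blastocysts. Mouse MII oocytes from young B6C3F1 females primed with gonadotropins received a cryopreserved CD1 sperm head by piezo-driven ICSI at a defined site: opposite the meiotic spindle (contralateral, the vegetal pole), next to it (ipsilateral, the animal pole) or half-way between (equatorial). Embryos of these 3 groups were cultured in KSOM with amino acids and either bisected at the 2-cell stage or left intact. After bisection, both sister blastomeres were sequenced singly, or each was grown singly into a blastocyst, which gives a pair of twins. Intact blastocysts came from 2-cell embryos that were not bisected. Every group therefore shares the oocyte strain, the sperm strain, the piezo ICSI and the culture medium, and none was fertilized naturally. The labels do not tie embryos to oocyte donors.

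Homologous recombination copies the broken stretch from an intact DNA molecule, usually the sister chromatid. Brca1 with its partner Bard1 favours resection of the break, Palb2 bridges Brca1 to Brca2, and Brca2 loads a recombinase onto the single-stranded DNA. The Rad51c protein belongs to a complex of recombinase paralogues, Rad54b is a motor protein that remodels DNA during strand invasion, and Slx1b is the nuclease that cuts branched joint molecules together with Slx4. In germ cells Dmc1 is the recombinase specific to meiosis, and Sycp3 builds the axis of meiotic chromosomes. The fertilized egg carries the sperm genome through chromatin remodelling and the first replication on maternal stores of mRNA, many of which are degraded by the blastocyst stage.

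The results below turn mostly on Sycp3 and Palb2, which differed by ICSI site, and on Brca2 and Slx1b, which changed between stages in opposite directions, Slx1b with a limit from depth given below. Their promoter windows, from 250 bases before to 50 after the annotated start, are shown for this reason. They are RefSeq sequence on GRCm38.p6, read in the direction of the gene. The windows are chr10:88459337-88459636 (Sycp3, plus strand), chr7:122132897-122133196 (Palb2, minus), chr5:150522371-150522670 (Brca2, plus) and chr7:126695734-126696033 (Slx1b, minus). Capitals mark the E2F-type motif TTTCCCGC, written as GCGGGAAA where it lies on the other strand, and the E-box CACGTG.
Sycp3: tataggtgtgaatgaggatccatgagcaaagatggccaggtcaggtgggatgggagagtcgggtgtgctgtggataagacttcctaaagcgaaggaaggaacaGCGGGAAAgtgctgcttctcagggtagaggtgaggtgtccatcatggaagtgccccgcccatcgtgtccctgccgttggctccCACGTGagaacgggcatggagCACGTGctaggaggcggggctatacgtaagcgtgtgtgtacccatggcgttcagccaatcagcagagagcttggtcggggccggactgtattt
Palb2: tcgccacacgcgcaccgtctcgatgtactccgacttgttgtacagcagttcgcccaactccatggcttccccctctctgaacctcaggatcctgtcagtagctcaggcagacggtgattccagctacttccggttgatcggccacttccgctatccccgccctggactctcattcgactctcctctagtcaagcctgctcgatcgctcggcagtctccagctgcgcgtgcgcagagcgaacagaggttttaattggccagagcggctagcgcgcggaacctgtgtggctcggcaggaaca
Brca2: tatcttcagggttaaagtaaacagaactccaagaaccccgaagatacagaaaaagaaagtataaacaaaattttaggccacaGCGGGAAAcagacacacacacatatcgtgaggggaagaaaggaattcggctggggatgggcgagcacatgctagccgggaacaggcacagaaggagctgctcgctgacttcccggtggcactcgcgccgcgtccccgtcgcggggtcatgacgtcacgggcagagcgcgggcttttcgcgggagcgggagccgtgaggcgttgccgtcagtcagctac
Slx1b: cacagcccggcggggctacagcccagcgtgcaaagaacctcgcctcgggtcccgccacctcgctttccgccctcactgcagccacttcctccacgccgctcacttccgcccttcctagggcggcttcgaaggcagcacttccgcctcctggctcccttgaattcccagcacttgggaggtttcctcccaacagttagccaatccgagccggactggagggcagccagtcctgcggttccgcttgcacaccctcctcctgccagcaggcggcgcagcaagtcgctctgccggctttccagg
Both strands were searched for TTTCCCGC, for the second E2F-type form TTTGGCGC and for CACGTG, and no 2 matches overlapped. In Sycp3, TTTCCCGC lies 147 bases before the start on the other strand, with CACGTG 64 and 43 bases before it. In Brca2, TTTCCCGC lies 168 bases before the start on the other strand. Bard1 has it at position -209 from the start, and the upstream of the 2 annotated starts of Rad51c has it 5 bases before on the other strand. Dmc1 carries TTTGGCGC at position 2 after its start. No match was found in the windows of Brca1, Palb2, Slx1b and the second start of Rad51c, and Rad54b had no window in the table. Of all 32851 promoter windows, 1.07% hold TTTCCCGC, 0.514% hold TTTGGCGC, 1.56% hold either and 7.15% hold CACGTG. These matches describe letters in a window, not bound sites.

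Values are given in CPM, the usual depth-scaled unit in which a gene's count is divided by the total count of the embryo, after adding both sisters or both twins. The 55 embryos with both blastomeres kept comprised 21 contralateral, 21 ipsilateral and 13 equatorial ones. The blastocysts comprised 19 twin pairs (6 contralateral, 7 ipsilateral, 6 equatorial) and 31 intact ones (11, 8 and 12). Total counts ran from 1255481 to 3976094 in 2-cell embryos, from 1676976 to 3095134 in twin pairs and from 234099 to 1254428 in intact blastocysts, 6 of which were under 500000. A count of 3 corresponds to 0.755 to 2.39 CPM in 2-cell embryos and to 2.39 to 12.8 CPM in intact blastocysts, so lower values there are near the limit of detection. Oocyte and trophectoderm marker genes followed the labelled stages. The 5 oocyte genes (Gdf9, Bmp15, Zp3, Dppa3, Zar1) summed to 2365 to 3799 CPM in 2-cell embryos and 330 to 683 CPM in twins. The 4 trophectoderm genes (Cdx2, Krt8, Krt18, Gata3) summed to 2660 to 3236 CPM in twins. Each of 5 cumulus cell genes had a median of 0 CPM at every stage, and 3 of 4 sperm genes did in 2-cell embryos. Intact blastocysts had 0 to 403 CPM of the oocyte genes and 2247 to 5049 CPM of the trophectoderm genes. The 4 inner cell mass genes (Nanog, Pou5f1, Sox2, Gata6) summed to 81.3 to 309 CPM in 2-cell embryos and 511 to 775 CPM in twins. In intact blastocysts they summed to 62.7 to 601 CPM, so this list did not separate intact blastocysts from 2-cell embryos. Bulk counts of an embryo do not separate fewer cells from less RNA per cell.

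At the 2-cell stage, Sycp3 and Palb2 rose in embryos from contralateral ICSI against equatorial ICSI, and the other 7 genes did not pass the test. Sycp3 (ENSMUSG00000020059, chr10:88459569-88473236, plus strand, 8 merged exons) ran from 59.4 to 304 CPM after contralateral ICSI (median 172), from 54.4 to 169 CPM after equatorial ICSI (median 85) and from 56.4 to 227 CPM after ipsilateral ICSI (median 142). The groups overlapped, with 12 of 21 contralateral and 7 of 21 ipsilateral embryos above the highest equatorial one. Contralateral embryos were 1.74-fold higher than equatorial ones, a log2 difference of 0.80 ± 0.20 (SE), with an edgeR adjusted p of 0.00322. The ipsilateral difference of 0.49 ± 0.20 had an adjusted p of 0.13. Within plate 1 alone the contralateral difference was 0.88 (adjusted p = 0.00213), and with total counts and detected genes as covariates it was 0.90. An overlap with another gene limits the Sycp3 count. Of the 1264 exonic bases of Sycp3, 660 (52.2%) lie in exons of Chpt1, a phospholipid enzyme gene on the opposite strand, and counting ignored strand. Whether reads in the shared bases were left out or counted for Sycp3 was not tested. The counts of Chpt1 itself differed by 0.02 ± 0.16 (log2) between contralateral and equatorial embryos, with an adjusted p of 0.954. The 5 oocyte genes had summed medians of 3014, 2904 and 2947 CPM in contralateral, equatorial and ipsilateral embryos.

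Palb2 (ENSMUSG00000044702, chr7:122107262-122132985, minus strand, 14 merged exons) ran from 54.8 to 139 CPM after contralateral ICSI (median 97), from 33 to 99.1 CPM after equatorial ICSI (median 57.9) and from 35.3 to 157 CPM after ipsilateral ICSI (median 87.3). The equatorial group was the lowest, and 20 of 21 contralateral and 17 of 21 ipsilateral embryos lay above its median. The contralateral difference was 0.53 ± 0.18 (log2, 1.44-fold) with an edgeR adjusted p of 0.0394. This call was lost with total counts and detected genes as covariates (0.39, adjusted p = 0.202) and in embryos with a mitochondrial share under 2% (0.56, adjusted p = 0.0577). The ipsilateral difference of 0.48 ± 0.18 had an adjusted p of 0.105. Among all 13141 genes tested, 13.2% were called between contralateral and equatorial embryos, 7.12% of all genes as higher, beside 2 of these 9. Between ipsilateral and equatorial embryos 6.65% of genes and none of the 9 were called by edgeR. Of the 9, 4 had an unadjusted p under 0.05, beside 2576 of all 13141. DESeq2 called 1 of the 9, Brca2 (0.16, adjusted p = 0.0473), beside 13.9% of all genes it tested. Mean total counts were 2575532, 3022462 and 2293032 in contralateral, ipsilateral and equatorial embryos, and the mean mitochondrial shares were 1.64%, 1.51% and 1.3%, so depth moved with the site. The part of depth in these differences was tested only through that covariate.

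**Figure D1:**
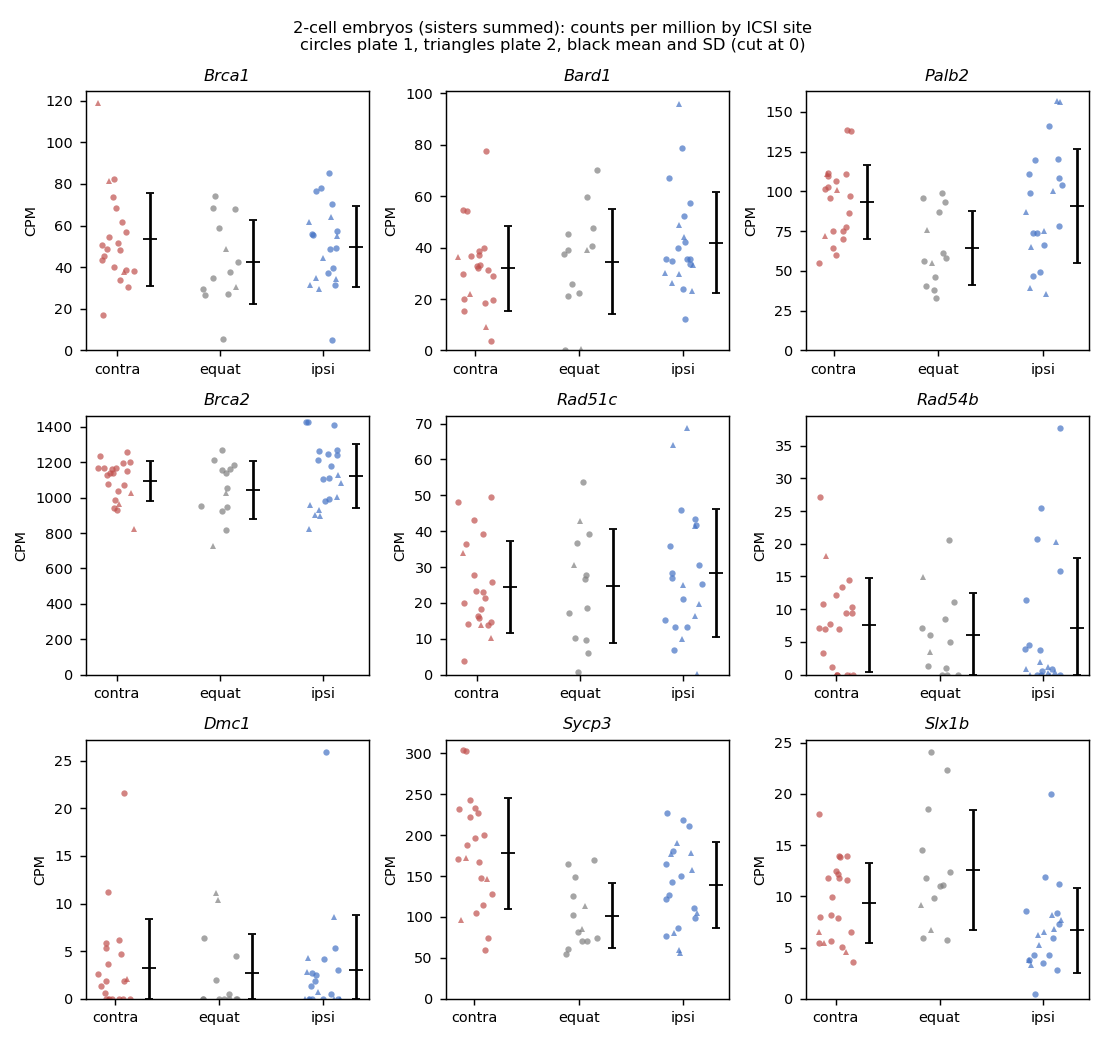
CPM of the 9 genes in each 2-cell embryo (y axis, linear, sisters summed) by ICSI site (x axis: contralateral n = 21, equatorial n = 13, ipsilateral n = 21), with circles for plate 1, triangles for plate 2, and the mean and SD in black. Sycp3 and Palb2 sat lowest in equatorial embryos, with medians of 85 and 57.9 CPM, while Brca2 lay between 728 and 1429 CPM in every embryo.

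Brca2 (ENSMUSG00000041147, chr5:150522630-150570329, plus strand, 28 merged exons) varied little between embryos. It ran from 824 to 1256 CPM after contralateral ICSI (median 1138), from 728 to 1271 CPM after equatorial ICSI (median 1055) and from 825 to 1429 CPM after ipsilateral ICSI (median 1111). The contralateral difference from equatorial was 0.06 ± 0.06 (log2), with a 95% interval from -0.06 to 0.18. The ipsilateral one was 0.16 ± 0.06 with an edgeR adjusted p of 0.125. Between plates, ipsilateral embryos had a mean of 1221 ± 148 CPM (SD, n = 13) on plate 1 and 967 ± 101.2 CPM (SD, n = 8) on plate 2.

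Brca1 (chr11:101488764-101551955, minus strand) had medians of 48.9, 37.9 and 49.2 CPM after contralateral, equatorial and ipsilateral ICSI, and a range of 5.27 to 118.8 CPM over all embryos. Its partner Bard1 (chr1:71027498-71103146, minus strand) had medians of 32.1, 39 and 35.5 CPM and was at 0 in 1 equatorial embryo. Neither passed the test, and the widths of their intervals allow differences of moderate size: from -0.15 to 0.80 for Brca1 and from -0.75 to 0.53 for Bard1 (log2, contralateral minus equatorial).

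Rad51c (chr11:87376645-87404954, minus strand) had medians of 21.4, 26.6 and 25.4 CPM in the contralateral, equatorial and ipsilateral groups and ran from 0.252 to 68.8 CPM. Its contralateral difference from equatorial was 0.01 ± 0.37 (log2). Rad54b (chr4:11558922-11615805, plus strand) was at 0 in 14 of 55 embryos, with medians of 7.09, 5.05 and 1.19 CPM. The meiotic recombinase gene Dmc1 (chr15:79561497-79605109, minus strand) was at 0 in 23 of 55 embryos, 7 of them among the 13 equatorial ones, and its highest value was 25.9 CPM. For both genes the site differences were not resolved at this depth, the SE of the contralateral difference from equatorial being 0.84 for Rad54b and 1.09 for Dmc1 (log2).

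Slx1b (ENSMUSG00000059772, chr7:126689468-126695784, minus strand), the joint-molecule nuclease, had its lowest values after ipsilateral ICSI. It ran from 5.75 to 24.1 CPM in equatorial embryos (median 11.1), from 3.62 to 18 CPM in contralateral ones (median 8.18) and from 0.448 to 20 CPM in ipsilateral ones (median 6.24). In the ipsilateral group 9 of 21 embryos lay below the lowest equatorial one and 3 above the equatorial median. The ipsilateral difference was -0.80 ± 0.39 (log2), with an edgeR adjusted p of 0.241. A rank-sum test on CPM with permuted site labels called the same direction, with a difference of -0.91 and an adjusted p of 0.0191. Over all genes that test called 1514 of 11434, where edgeR called 874 of 13141. Unlike the edgeR fit, that test took no account of plate. Plate 2 held 8 of 21 ipsilateral and 2 of 13 equatorial embryos, and mean Slx1b was lower on plate 2 at each site. In equatorial embryos the means were 13.4 CPM on plate 1 and 7.95 CPM on plate 2, and in ipsilateral embryos 7.09 and 5.97 CPM. Without the plate term, and within plate 1 alone, edgeR called 0 of the 9 genes between these groups. The part of plate in the rank-sum call was not tested. The counts behind these values had medians of 20 to 25 reads per embryo in the 3 groups.

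Between contralateral and ipsilateral embryos, 0 of the 9 genes were called by edgeR, 0 by DESeq2 and 0 at an unadjusted p under 0.05. Over all genes 0 (0%) were called, with 555 at an unadjusted p under 0.05. The interval of the Sycp3 difference ran from -0.03 to 0.65 and that of Palb2 from -0.27 to 0.36 (log2), so differences within these bounds cannot be told from 0 here.

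On the length-corrected scale (TPM), which allows genes to be compared with each other, Sycp3 had the highest median of the 9 in 2-cell embryos (377 TPM), followed by Brca2 (264 TPM) and Palb2 (37.1 TPM). Bard1 (20.5 TPM), Brca1 (17.8 TPM) and Rad51c (16.4 TPM) were neighbours whose SDs over embryos, 11.3, 7.83 and 11.9 TPM, exceed the steps between them. Slx1b (7.50 TPM), Rad54b (2.35 TPM) and Dmc1 (1.55 TPM) were the lowest. Sycp3 lay at the 98.2 percentile and Brca2 at the 97.2 percentile of the genes with any count. Dmc1 was lowest and Sycp3 highest of the 9 in twin and intact blastocysts too, on the same scale.

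In the wider pathway every gene called by edgeR in contralateral or ipsilateral against equatorial embryos was higher. Of 44 other genes of homologous recombination, 43 were tested between contralateral and equatorial embryos, 6 rose and 0 fell, with a median log2 difference of 0.06. Of 36 other meiosis genes, 28 were tested, 4 rose and 0 fell, with a median of 0.12. Over all 13141 genes 7.12% were called higher and 6.06% lower, with a median of 0. Abraxas1, a subunit of a Brca1-binding complex, had medians of 48.6 CPM after contralateral and 16.8 CPM after equatorial ICSI, a log2 difference of 2.04 ± 0.40 (edgeR adjusted p = 0.00029). Rpa3, the small subunit of the complex that coats single-stranded DNA, had medians of 234 and 124.5 CPM (0.83 ± 0.17, adjusted p = 0.000519). Zswim7 and Swi5, which code for recombinase cofactors, rose by log2 differences of 0.94 ± 0.27 and 0.34 ± 0.10. Among the meiosis genes Tex11 and Mei4 rose by 0.97 ± 0.17 and 1.13 ± 0.27. The synaptonemal complex genes Tex12 and Sycp2 rose by 1.25 ± 0.24 and 0.49 ± 0.14. Ipsilateral embryos showed 2 and 3 calls in these lists against equatorial ones, all as higher: Abraxas1 (1.63 ± 0.39), Zswim7 (0.90 ± 0.27), Tex11 (0.89 ± 0.17), Tex12 (1.03 ± 0.24) and Sycp2 (0.51 ± 0.15). Over all genes 3.43% were called higher and 3.22% lower between ipsilateral and equatorial embryos, beside 2 of 43 and 3 of 28 in these lists. With total counts and detected genes as covariates the 874 calls over all genes became 51, all as higher. Depth moved with the site, so the parts of depth and site in these calls cannot be told apart. Both contrasts share the 13 equatorial embryos.

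Sisters of an embryo had smaller median differences than unrelated blastomeres for Brca2, Sycp3, Slx1b, Rad54b and Palb2, and about the same ones for Brca1, Bard1 and Dmc1. Brca2 differed between sisters by a median of 0.148 on the log2(CPM + 1) scale, against 0.187 between non-sister blastomeres of the same site and plate. Counting error alone would give an SD of the difference of 0.0567, where the root mean square difference was 0.245. Sycp3 differed by 0.439 between sisters and 0.686 between non-sisters, with a counting SD of 0.184 and a root mean square difference of 0.892. Its lowest difference was 0.00794 and its highest 2.59. Slx1b (0.458 against 0.768), Rad54b (1.34 against 1.81) and Palb2 (0.488 against 0.608) likewise differed less between sisters, Slx1b and Rad54b at median counts of 10 and 2 per blastomere. These medians have no test and describe 55 pairs. Brca2 lay at the 1.4 percentile of 11173 genes, where a low percentile means a small sister difference. This rank takes no account of level, and Brca2 had a median of 1411 counts per blastomere.

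Brca1 differed by 0.73 between sisters and 0.727 between non-sisters, and Dmc1 by 1.24 and 1.22. Bard1 differed by 0.994 against 1.01 and Rad51c by 1.11 against 1.24. In 3 embryos Brca1 was at 0 in 1 sister only, and this held for 4 embryos in Bard1, 8 in Rad51c, 20 in Rad54b and 24 in Dmc1. For Brca1 the other sister could be well expressed: the largest gap was 7.02 log2 units. Intraclass correlations of sisters, after taking out site and plate, ran from -0.062 for Brca1 to 0.327 for Sycp3, beside a median of 0.0971 over 11173 genes. By this measure Bard1 (0.286) stood apart from Brca1 and Dmc1 (0.066). It lay near Brca2 (0.295), Slx1b (0.271) and Rad54b (0.258), with Palb2 at 0.208 and Rad51c at 0.08. The intraclass correlation of Brca2 was at the 83.2 percentile of the 11173 genes. The median sister difference over those genes was 0.876. The size of the sister difference was not called between ICSI sites for any of the 8 genes tested. The 3 contrasts gave 0 calls by limma, with Benjamini-Hochberg adjustment over all genes within each contrast. They gave 2 values at an unadjusted p under 0.05, both of Palb2. Of all genes 0.0448%, 0.0895% and 0% were called between contralateral and equatorial, ipsilateral and equatorial, and contralateral and ipsilateral pairs, with 1012, 1064 and 555 at an unadjusted p under 0.05. The sister gap of Palb2 had a median of 0.69 in contralateral, 0.524 in equatorial and 0.408 in ipsilateral pairs, with limma adjusted p of 0.436 between the first 2 groups and 0.992 between contralateral and ipsilateral pairs. Dmc1 was under the mean of 5 CPM asked for in this test. On simulated counts the test recovered 2.5% of 3-fold changes and 100% of 8-fold ones. Its 0 calls for these genes therefore say little about site differences of moderate size.

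Twins, the 2 blastocysts grown from sister blastomeres, differed by a median of 0.308 in Brca1, 0.407 in Bard1 and 0.265 in Rad54b on the same scale, against 0.573, 0.827 and 0.639 between blastocysts of different pairs. Brca2 (0.387 against 0.393), Sycp3 (0.469 against 0.463) and Palb2 (0.99 against 0.945) had about the same median within as between pairs, and Rad51c a larger one (1.53 against 1.23). The intraclass correlation of twins gives another order: it was highest for Palb2 (0.413) and Rad54b (0.405), 0.287 for Sycp3, -0.107 for Brca2 and -0.203 for Rad51c. Over 10371 genes the median twin difference was 0.496. Brca1, whose sister blastomeres were no closer than unrelated ones, thus had a smaller median within than between twin pairs, although its intraclass correlation was -0.025.

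**Figure D2:**
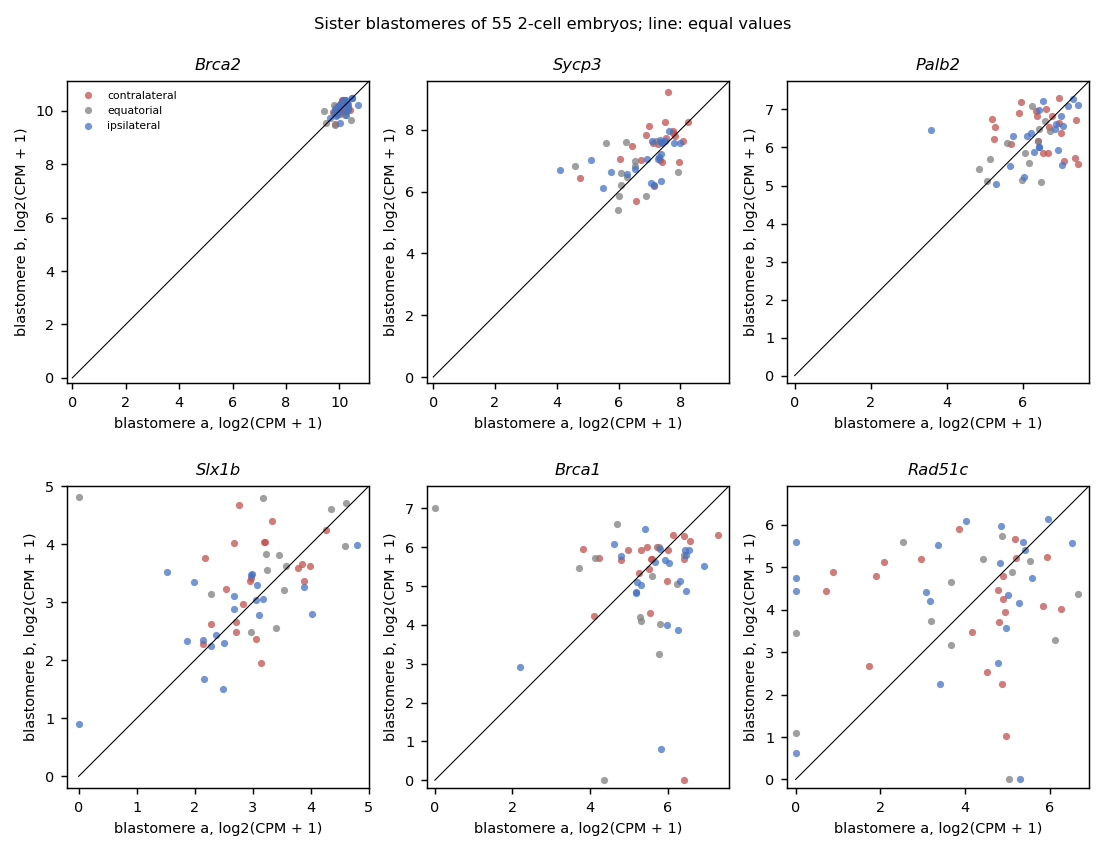
Sister blastomeres of 55 2-cell embryos: log2(CPM + 1) in blastomere a (x axis) against blastomere b (y axis), 1 point per embryo coloured by ICSI site, with the line of equal values. Brca2 forms a tight cluster on the line, while Brca1 and Rad51c have blastomeres at 0 beside sisters with a clear signal.

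From the 2-cell embryo to the blastocyst, 4 of the 9 genes fell in both kinds of blastocyst, 2 rose in both and Brca1 and Bard1 fell in intact blastocysts. Brca2 lost most. It ran from 728 to 1429 CPM in 2-cell embryos (median 1126), from 86.3 to 178 CPM in twin pairs (median 121.8) and from 8.01 to 218 CPM in intact blastocysts (median 63.5). No blastocyst of either kind reached the lowest 2-cell embryo. The change was -3.11 ± 0.15 (log2, 8.63-fold lower) in twins and -3.99 ± 0.13 (15.9-fold lower) in intact blastocysts, with edgeR adjusted p of 7.94e-39 and 8.02e-53. Over all 16731 genes, 75.1% were called in twins (43.4% lower, 31.7% higher) and 75.7% in intact blastocysts (46.3% lower, 29.4% higher), and the median change was -0.39 and -0.59. A call of direction alone is common at this step. With RLE factors the median of all genes in intact blastocysts moved from -0.59 to -0.48, and the calls of the 9 genes kept their direction.

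Palb2, which joins Brca2 to Brca1, fell from a median of 86.1 CPM to 19.9 CPM in twins and 12.8 CPM in intact blastocysts. Its changes were -2.28 ± 0.31 and -2.72 ± 0.28 (log2), and 17 of 19 twin pairs and 27 of 31 intact blastocysts lay below the lowest 2-cell embryo. Rad51c fell from 23.3 CPM to 12.2 and 7.24 CPM, by -1.37 ± 0.44 and -1.99 ± 0.40. Sycp3 fell from 147 CPM to 65.5 and 32.2 CPM, by -0.98 ± 0.25 and -2.16 ± 0.23. Chpt1, whose exons overlap those of Sycp3, changed by 1.98 ± 0.16 and 0.69 ± 0.14, in the other direction.

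Brca1 kept a median of 52.4 CPM in twins beside 48.6 CPM in 2-cell embryos (-0.16 ± 0.32, adjusted p = 0.663) and had 18.5 CPM in intact blastocysts (-1.28 ± 0.29, edgeR adjusted p = 5.48e-05). The 19 twin pairs ran from 33.2 to 81.4 CPM, within the range of the 2-cell embryos. Bard1 had medians of 35.4, 18.1 and 9.62 CPM at the 3 stages in the same order. Its changes were -0.73 ± 0.42 in twins (adjusted p = 0.105) and -1.57 ± 0.38 in intact blastocysts (adjusted p = 0.00016). Among intact blastocysts Bard1 was at 0 in 5 of the 6 under 500000 counts and in 1 of the 25 others.

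Rad54b and Slx1b rose. Rad54b had a median of 3.89 CPM in 2-cell embryos, 31 CPM in twins and 19.4 CPM in intact blastocysts. Every twin pair had at least 15.5 CPM, above the 2-cell median. The changes were 2.67 ± 0.69 (log2, adjusted p = 0.000319) and 1.78 ± 0.63 (adjusted p = 0.00867). Of its 5782 exonic bases 2068 (35.8%) belong also to Fsbp, a gene on the same strand, whose mean was 1.07 CPM in 2-cell embryos and 10.9 and 9.79 CPM in twin and intact blastocysts. Reads in the shared bases cannot be told apart.

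Slx1b ran from 0.448 to 24.1 CPM in 2-cell embryos (median 7.97), from 9.18 to 49.4 CPM in twins (median 20.1) and from 11.2 to 262 CPM in intact blastocysts (median 38). In 27 of 31 intact blastocysts it was above the highest 2-cell embryo. The changes were 1.41 ± 0.35 and 2.62 ± 0.35 (log2, edgeR adjusted p = 0.000189 and 1.26e-10). The 6 intact blastocysts with the fewest counts had 61.7 to 262 CPM (median 156) and the 25 others 11.2 to 99.4 CPM (median 34.7), and without those 6 the change was 2.25 (adjusted p = 1.98e-10). Slx1b shares 360 exonic bases (10.2%) with Bola2 on the opposite strand, which rose by 1.66 ± 0.23 in twins and 1.58 ± 0.21 in intact blastocysts. Dmc1 did not pass the test, with a median of 1.33 CPM in 2-cell embryos and 4.08 CPM in twins, and it was at 0 in 18 of 31 intact blastocysts.

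Total counts of 2-cell embryos and intact blastocysts did not overlap, so stage and depth cannot be told apart for that contrast. With the total count as a further term, 2 of the 9 genes were called between them, Brca2 (-3.74) and Sycp3 (-1.42), and Slx1b was at -0.03. Over all genes 56.2% were called in that fit. For twins, whose totals overlap those of 2-cell embryos, the 6 called genes were called in each of 7 alternatives. Bard1 was called in 2 of the 7, with DESeq2 and without the plate term.

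**Figure D3:**
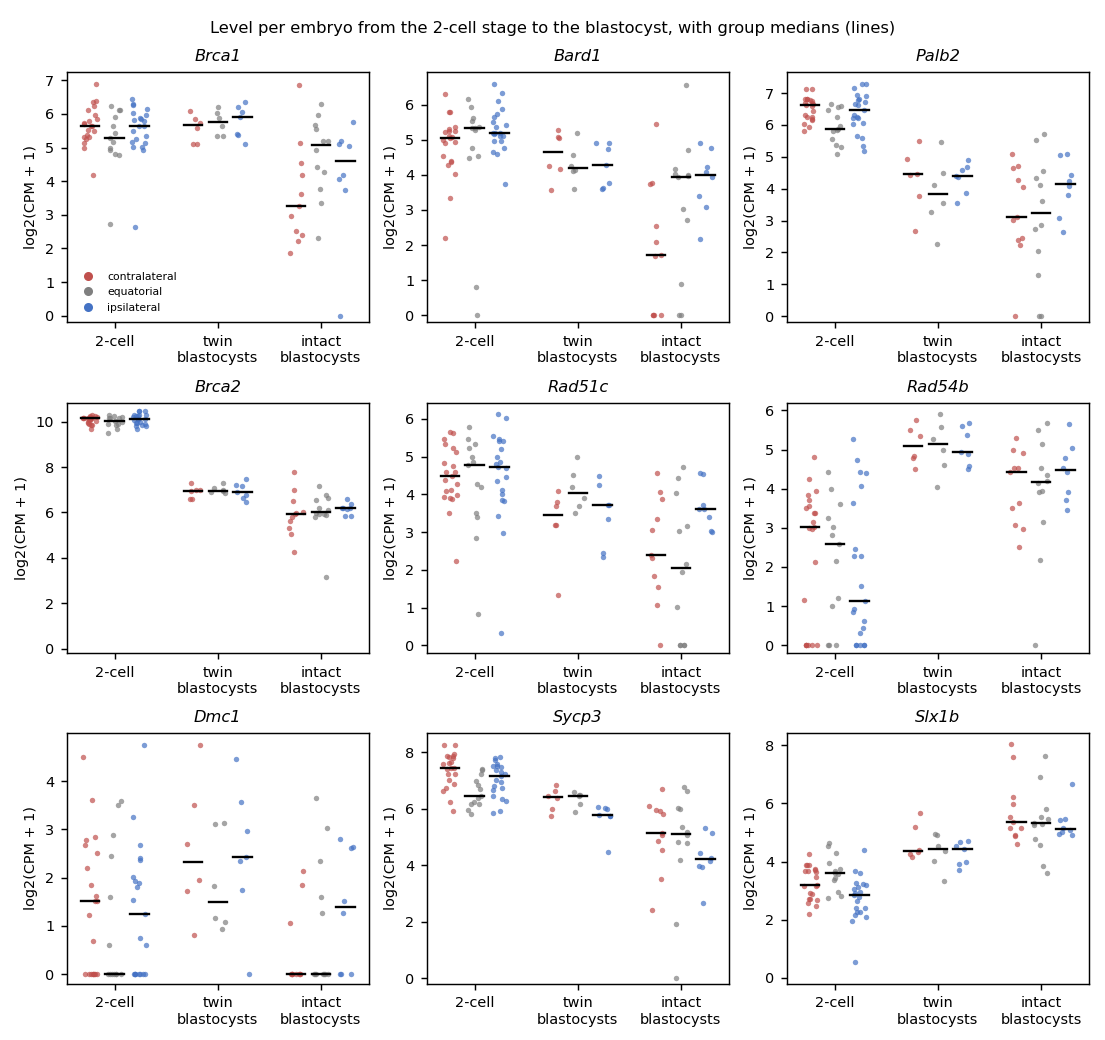
Level of each gene per embryo as log2(CPM + 1) (y axis) in 2-cell embryos, twin pairs and intact blastocysts (x axis), with points coloured by ICSI site and black lines at group medians. Brca2 and Palb2 step down from the 2-cell stage, Rad54b and Slx1b step up, and intact blastocysts spread most.

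Of the other genes in both lists some rose and some fell at this step. In twins 16 of 44 recombination genes rose and 13 fell (median change -0.04), and in intact blastocysts 6 rose and 21 fell (median -0.78). Of 35 meiosis genes tested, 4 rose and 20 fell in twins (median -2.50) and 1 rose and 23 fell in intact blastocysts (median -2.79), beside the medians of -0.39 and -0.59 over all genes. Over all genes 31.7% rose and 43.4% fell in twins, and 29.4% rose and 46.3% fell in intact blastocysts. The helicase gene Helq went from a median of 619 CPM to 31.6 CPM in twins and 17.1 CPM in intact blastocysts, the resection factor gene Rbbp8 from 190 CPM to 26.4 and 26.2 CPM, and Mcm9 from 69.2 CPM to 12.5 and 7.13 CPM. Among genes of a Brca1-associated deubiquitinase complex, Babam1 rose from 9.80 CPM to 78.0 and 29.8 CPM and Babam2 from 15.8 CPM to 62.8 and 57.6 CPM. Abraxas1, of the same complex, did not pass the test in twins (-0.06 ± 0.41) or intact blastocysts (-0.59 ± 0.38). Sem1, which codes for a small Brca2-binding protein, rose from 99.6 CPM to 277 and 279 CPM, while Brca2 fell.

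Genes of the chromosome axis and of meiotic break formation went both ways. Sycp2, the partner of Sycp3 in the axis, went from a median of 126.6 CPM to 0 CPM in both kinds of blastocyst, at 0 in 12 of 19 twin pairs. Tex11 went from 183 CPM to 0 CPM, at 0 in 14 of 19 twin pairs, and Mei4 from 39.3 CPM to 0 CPM, at 0 in 16 of 19. In twins the break-formation gene Rec114 rose from a median of 0 CPM to 10.7 CPM (2.75 ± 1.06, edgeR adjusted p = 0.0157). The meiotic cohesin gene Rec8 rose from 0 to 2.17 CPM (4.38 ± 0.98), near the level of 3 counts. Stag3, of the same cohesin, did not pass the test (-0.73 ± 0.39). Syce2 kept 104.7 CPM of 485 CPM in twins and 82.8 CPM in intact blastocysts. Trip13, an ATPase that also acts in the mitotic checkpoint, rose from 31 CPM to 137 CPM in twins, with 71.5 CPM in intact blastocysts, and passed the test in twins, not in intact blastocysts.

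**Figure D4:**
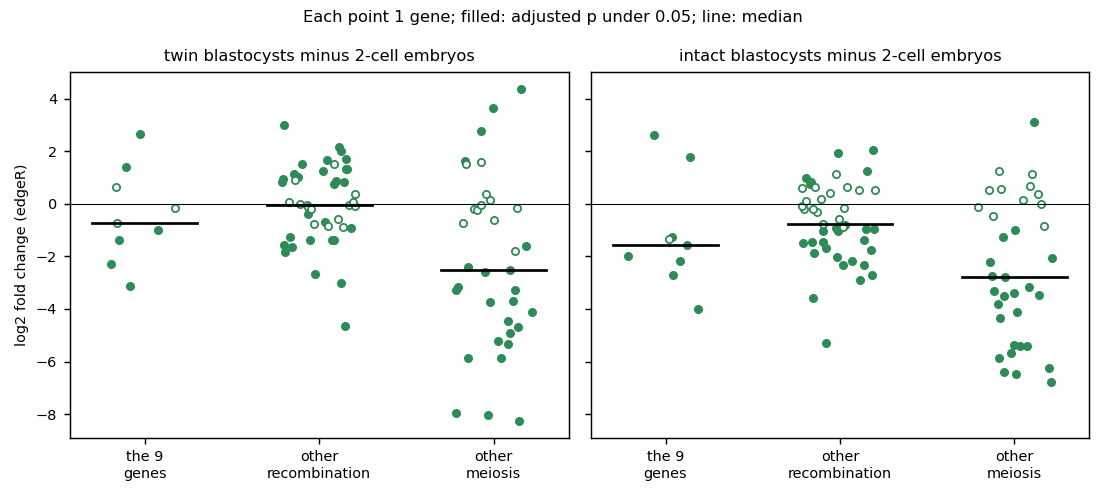
Log2 fold change from 2-cell embryos to twin (left) and intact (right) blastocysts for the 9 genes, 44 other recombination genes and 35 other meiosis genes tested (x axis), 1 point per gene, filled where the edgeR adjusted p was under 0.05, with lines at the medians. The median of the other meiosis genes was -2.50 in twins and -2.79 in intact blastocysts, against -0.04 and -0.78 for the other recombination genes.

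Twin and intact blastocysts differed in 5 of the 8 genes tested, Dmc1 being too low for the test. Brca1 was higher in twins by 0.92 ± 0.30 (log2, 1.89-fold, edgeR adjusted p = 0.00968), Sycp3 by 1.00 ± 0.25 (1.99-fold, adjusted p = 0.00089), Brca2 by 0.68 ± 0.18 (adjusted p = 0.0013) and Rad54b by 0.70 ± 0.26 (adjusted p = 0.0266). All 19 twin pairs lay above the intact median for Brca1 and Brca2, and 18 of 19 for Sycp3 and Rad54b. Slx1b was lower in twins by -1.41 ± 0.29 (adjusted p = 7.2e-05), with 1 of 19 twin pairs above the intact median. Of all 10689 genes, 40.7% were called, 20.1% as higher in twins. The other recombination genes showed 16 higher and 1 lower of 43 (median 0.47, beside 0 over all genes), among them Eme1 (1.49 ± 0.33), Swi5 (0.58 ± 0.13) and Babam1 (0.90 ± 0.23), with Rmi1 lower (-0.58 ± 0.22). Of 16 other meiosis genes 3 were higher, Trip13, Psmc3ip and Rec114, and Stag3 was lower. Twin pairs, each the sum of 2 libraries, had totals above every intact blastocyst. With the total count as a further term 1 gene was called, Slx1b at 1.12, in the opposite direction, beside 13.3% of all genes. Using only twin a of each pair, whose totals overlap those of intact blastocysts, left Brca1, Brca2, Sycp3 and Slx1b called and Rad54b not (0.61, adjusted p = 0.0962), and Dmc1, which could be tested there, was called too. Over all genes 35.8% were called with twin a alone.

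**Figure D5:**
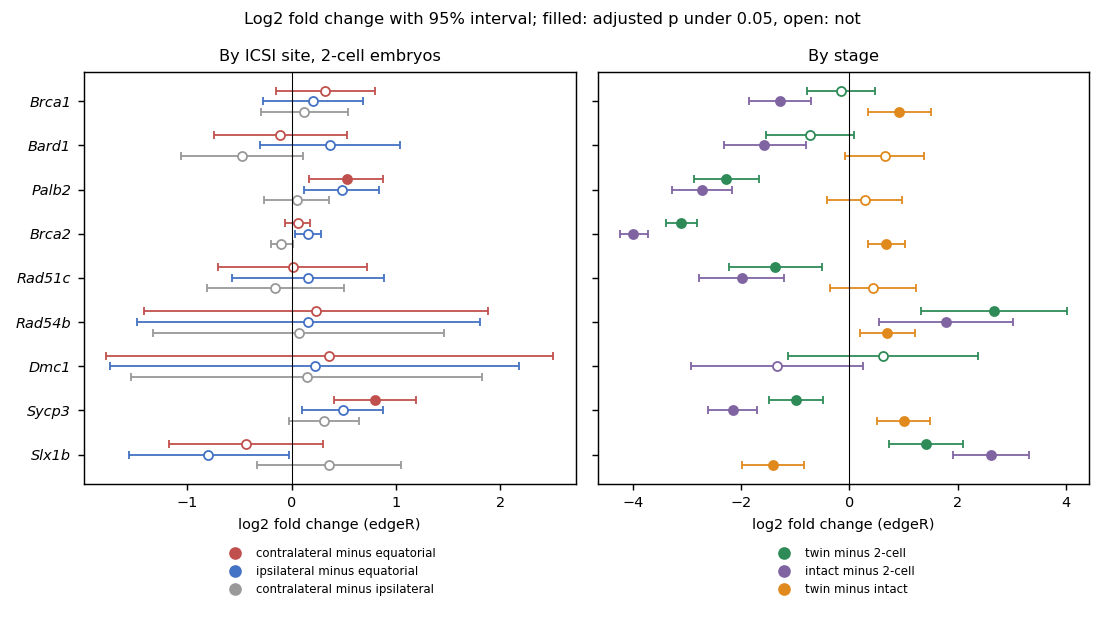
Log2 fold change of the 9 genes with its 95% interval (x axis) between ICSI sites in 2-cell embryos (left) and between stages (right), filled where the edgeR adjusted p was under 0.05. Between sites the filled points are Palb2 (0.53) and Sycp3 (0.80), and between stages Brca2 lies farthest from 0, at -3.99 in intact blastocysts.

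No difference between ICSI sites passed the test in blastocysts for these genes. Of the 8 genes tested, 0 were called by edgeR in any of the 6 site contrasts and 0 by DESeq2. Over all genes 0% were called between each pair of sites in twins (41, 66 and 62 genes with an unadjusted p under 0.05), and 0.168%, 0% and 0.0187% between contralateral and equatorial, ipsilateral and equatorial, and contralateral and ipsilateral intact blastocysts (855 at an unadjusted p under 0.05 in the second). One fit with a common spread served both kinds of blastocyst. In intact blastocysts 1391, 855 and 1122 of 10689 genes had an unadjusted p under 0.05, in the same order of contrasts. In twins these counts lie far below the share of 0.05 that chance alone gives. The site test was thus insensitive in twins, and 0 calls there say little about site differences. Whether separate fits would change these results was not tested. In twins the contralateral difference of Sycp3 from equatorial was 0.07 (interval from -0.87 to 1.01) and that of Palb2 0.41 (from -0.94 to 1.76). Bard1 in contralateral against equatorial intact blastocysts (-1.19 ± 0.57, adjusted p = 0.363) had an unadjusted p under 0.05. In that contrast no tested gene reached this with the total count as covariate, without intact blastocysts under 500000 counts or with twin a alone. With DESeq2, with RLE factors and without a filter, 1 gene did. Bard1 was at 0 in 5 of the 6 intact blastocysts under 500000 counts. The part of depth in its difference was tested only through these fits. Sycp3 had an unadjusted p under 0.05 in ipsilateral intact blastocysts, against equatorial (-1.11 ± 0.42, adjusted p = 0.467) and contralateral ones. Its medians there were 34.1, 33.6 and 17.4 CPM after contralateral, equatorial and ipsilateral ICSI. The oocyte genes had summed medians of 65.2, 100.7 and 25.9 CPM in those groups, and their part in the Sycp3 values was not tested. Over all intact blastocysts 4 of these 5 genes (Gdf9, Bmp15, Zp3 and Zar1) had a median of 0 CPM. Only Dppa3 had a median above 0, so the sum there does not stand for the oocyte genes as a set.

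Whether a site difference changed between stages was tested directly. For Sycp3 the ipsilateral difference from equatorial was larger in 2-cell embryos than in intact blastocysts by 1.57 ± 0.44 (log2), with an edgeR adjusted p of 0.0599. It was called in 3 of 7 alternatives: with RLE factors, with DESeq2 and without the 6 shallow intact blastocysts, the last 2 chosen after seeing the data. Against twins it was 1.12 ± 0.46 (adjusted p = 0.437), and for the contralateral difference of Palb2 it was 0.15 ± 0.58 against twins and 0.77 ± 0.50 against intact blastocysts. None of the 9 was called in the 6 contrasts, Brca1 and Sycp3 having an unadjusted p under 0.05 against intact blastocysts and Sycp3 against twins. Over all 16731 genes 0.179%, 0.263% and 0.0837% were called in the 3 contrasts against twins and 4.08%, 0.741% and 0.837% in those against intact blastocysts. Of the other recombination genes, Abraxas1 (2.41 ± 0.66) and Rpa3 (1.16 ± 0.34) had a larger contralateral difference in 2-cell embryos than in intact blastocysts, and Rbbp8 a smaller one (-1.22 ± 0.34). Of the meiosis genes, Tex12 (2.65 ± 0.75) and Msh4 (3.69 ± 1.15) had a larger one, and Prdm9 (-2.69 ± 0.65) and Stag3 (-2.04 ± 0.61) a smaller one.

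Each of the 8 genes with a mean of at least 5 CPM was set against 11192 genes over the 55 2-cell embryos, after taking out site and plate. Sycp3 was most like Lsm5, a gene of RNA decay and splicing (Spearman 0.767), Palb2 like Zcchc8 (0.661), Slx1b like Slitrk2 (0.632) and Brca2 like the nuclear pore gene Nup155 (0.583). Bard1 was most like Ncstn (0.569), Rad54b like Mrpl27 (0.546), Rad51c like Ccser1 (0.513) and Brca1 like Ptpn3 (0.509). Between these 8 genes the correlations ran from -0.248 to 0.288, the highest being that of Palb2 with Bard1. Each most like gene was picked as the highest of 11192 correlations over 55 embryos, and such a search alone gives high values. How high was not tested, so these names do not stand for a shared regulation. The correlations are descriptions over embryos that share plates and depth.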

How the data were processed

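RNA of single blastomeres and single blastocysts was amplified with a SMART-Seq kit and sequenced from Nextera XT libraries on a NovaSeq. The authors ran Trimmomatic 039, FastQC 0.12.1 and STAR 2.7.10b without strand against GRCm38 with GENCODE M23, on 100-base reads. The paper describes a paired-end and a single-end dataset of blastomeres, the former cut to first reads of that length. Its blastocysts had single-end reads only. The sample titles do not name the dataset. The values they deposited are raw counts per gene, in 125 blastomeres and 69 blastocysts, without normalization. A library has no molecular identifiers, so counts are not independent molecules, and floors and counting SDs cover counting error only, while intervals of fold changes come from the spread between embryos.

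Groups, pairs and sister letters came from the labels, and the plates of blastomeres from the names of their count columns. Blastomeres needed 9500 detected genes (7 failed) and blastocysts 4000, and counts of sisters or twins were added, so the embryo is the replicate. Because embryos are not tied to females or males in the labels, p-values measure the spread between embryos. CPM and TPM were computed here, with GENCODE M21 exon lengths for 32235 genes. Main tests were edgeR 4.0.16 quasi-likelihood fits (TMM, filterByExpr, robust, Benjamini-Hochberg over all genes, threshold 0.05) with plate as covariate in 2-cell and stage fits. The names of blastocysts give no plate. All were entered as plate 2, so the plate term rests on the 2-cell embryos. Sister differences on log2(CPM + 1), for genes with a mean of at least 5 CPM, were tested with limma 3.58.1. Alternatives were DESeq2 1.42.0, RLE factors, no filter, no plate term, plate 1 alone, depth covariates, other sets of embryos, twin a alone, and rank-sum tests with 100000 permutations. Tools beside these were R 4.3.3, scipy 1.17.1, pandas 2.3.3 and Python 3.11.15, with matplotlib 3.10.9 for plots. On simulated counts with 200 genes changed 2-fold, of which 192, 192 and 193 passed the filter, edgeR recovered 43.2% (contralateral against equatorial, 13141 genes), 31.2% (twin against 2-cell, 16731 genes) and 68.4% (twin against intact, 10689 genes), and unchanged genes made up 4.60%, 25.0% and 7.04% of its calls. Far fewer genes were changed in the simulation than were called in the data, so these shares of unchanged genes do not carry over. The sister test recovered 2.5% of 3-fold changes and 100% of 8-fold changes.

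The 9 genes and both pathway lists were chosen with earlier results of these data known. From the lists, at most the 4 called genes with the smallest p per direction and comparison were eligible to be named, and for each of the 9 genes with a mean of at least 5 CPM the gene with the highest Spearman correlation. Promoter sequence is RefSeq's, on GRCm38.p6. Some further items are not reported here.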

Additional observations from a re-analysis of the deposited data

Results flagged for a closer look

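Among 36 groups of 4 to 10 blastocysts tested, 2 had a sample far from the others, where chance alone flags about 1 in 20 groups. Among the 8 intact ipsilateral blastocysts, a single one had 99.4 CPM of Slx1b and the next one 43.3 CPM. Among the 7 ipsilateral twin pairs, a single one had 21 CPM of Sycp3, and the next one had 51.9 CPM. No cause was tested for either value.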

How the results depend on the processing

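Of 438 values of the 9 genes under alternatives, 29 changed direction, 1 of them a called value, and 8 of the 29 did so with the total count as covariate. The contralateral rise of Sycp3 at the 2-cell stage was called under each of 10 alternatives. Between contralateral and equatorial embryos 1 gene was called, in place of 2, with depth covariates, under a mitochondrial share of 2% and on added TPM ranked between groups. Over all genes these called 8.12%, 8.48% and 2252 of 11434. Between ipsilateral and equatorial embryos 1 gene was called, in place of 0, with DESeq2 (Brca2), with all complete pairs (Palb2) and by the rank-sum test on CPM and on added TPM (Slx1b). There DESeq2 called 13.9% of all genes and the fit of all complete pairs 8.49%. The rank-sum tests called 1514 and 1624 of 11434. With the total count as covariate 2 genes were called between intact blastocysts and 2-cell embryos and 1 between twin and intact blastocysts. The shares of all genes called in these fits were 56.2% and 13.3%. The ipsilateral site effect against intact blastocysts had 1 call with RLE factors, 1 with DESeq2 and 1 without the intact blastocysts under 500000 counts. Over all genes 0.867%, 1.03% and 1.26% were called in those fits, in the same order. For these site effects every alternative but RLE factors was chosen after seeing the data, as were twin a alone between sites and all without shallow blastocysts. The causes were not tested.

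Values that changed direction in contralateral against equatorial embryos were those of Brca2 (-0.02, added TPM), of Rad51c (-0.04 with all complete pairs, -0.03 with depth covariates and under the mitochondrial limit, -0.01 without the plate term and by rank sum on CPM, -0.14 on added TPM), of Rad54b (-0.04 with all pairs, -0.52 under the mitochondrial limit) and of Dmc1 (-0.09 with all pairs, -0.08 with depth covariates). With depth covariates the ipsilateral differences of Brca1 and Dmc1 from equatorial were -0.18 and -1.01. Between contralateral and ipsilateral embryos they were Brca1 (-0.09, plate 1), Palb2 (-0.0019, all pairs), Rad54b (-0.11, all pairs, -0.61, mitochondrial limit, and -0.25, plate 1) and Dmc1 (-0.10, all pairs, and -0.22, mitochondrial limit). With the total count as covariate they were Brca1 (0.10) in twins, Bard1 (0.47), Dmc1 (0.28) and Slx1b (-0.03) in intact blastocysts against 2-cell embryos, and Brca1 (-0.04), Bard1 (-1.50), Palb2 (-1.31) and Slx1b (1.12, called) in twin against intact blastocysts. With twin a alone Rad51c was at -0.17.

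Counts over all genes moved by over 1.5 times as follows. The 1733 calls between contralateral and equatorial embryos became 1067 with depth covariates, 1104 under the mitochondrial limit and 3930 without a filter, and on added TPM they split into 858 higher and 1394 lower, in place of 936 and 797. The 874 between ipsilateral and equatorial embryos became 51 (51 higher) with depth covariates, 2603 without a filter, and 1514 and 1624 by rank sum on CPM and TPM. The 0 between contralateral and ipsilateral became 1577 without a filter. The 4353 between twin and intact blastocysts became 1426 (534 higher, 892 lower) with the total count. In intact blastocysts DESeq2 called 165, 21 and 59 genes, in place of 18, 0 and 2 (contralateral and ipsilateral against equatorial, then against each other), and without the shallow ones 8, 16 and 9 were called. With the total count as covariate the first 2 became 4 and 1, without a filter the last became 1, and with twin a alone the first and last became 0. The site effects against intact blastocysts had 682 calls in the first contrast and 140 in the last, and 0.741% of genes in the second. They became 452, 81 and 210 without the shallow ones. With 2-cell embryos of plate 2 alone the first became 155 and the second 215, with the total count the first became 308, and without a filter the second became 214 and the last 226. Against twins the 30, 44 and 14 calls became 92, 153 and 95 with plate 2 alone, the first became 60 with DESeq2 and 19 without the plate term, and the last became 27 with DESeq2. The sister test had 51 and 68 calls without its depth term, in place of 5 and 10 (contralateral and ipsilateral against equatorial), 0 and 2 with genes of at least 1 CPM, 10 in the first with a pseudocount of 0.5 and 2 in the second with a pseudocount of 5. In the shallowest intact blastocyst 3 counts are 12.8 CPM, at or above the median levels of Bard1, Palb2, Rad51c and Dmc1 in intact blastocysts. No paired analysis was possible because the groups share no replicate numbers in the labels. No group had 2 to 5 embryos, so no embryo was left out in turn.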
